A study of Mus musculus with 9 samples.

Results

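The genes described here are 4 lipid-sensing nuclear receptors and 6 of the genes they are known to control: Pparg, Rxra, Nr1h2 and Nr1h3, and Abca1, Abcg1, Mylip, Apoe, Cd36 and Plin2. They form the PPARG, RXR and LXR receptor system of macrophages with part of its output. Of these 10 genes, 9 were measured among 18193 genes, each by the brightest probe set whose annotation names that gene alone, and Nr1h2 was not analysed here. Bone marrow derived macrophages of C57BL6 mice aged 6 to 12 weeks were used on culture day 6, after growth in medium conditioned by L929 cells. All 3 groups were first primed with lipopolysaccharide (LPS), the endotoxin of bacteria, which turns on inflammatory genes. It was given for 3 h at 33 ng/mL. The saline group, titled LPS, then received sterile saline for 6 h, the LPS+TMT group received trimethyltin hydroxide (TMT OH) at 1.25 µM and the LPS+TET group received triethyltin bromide (TET Br) at 10 µM for the same time. Each group had 3 biological replicates on 1 array each, and nothing used here says that they came from separate mice, so the spread behind each p-value is that between these samples and may be technical. The study set each organotin against saline as an inducer of the NLRP3 inflammasome. Cells without LPS were not analysed here, so every level is that of primed cells.

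PPARγ (encoded by Pparg) and the liver X receptors LXRα (Nr1h3) and LXRβ (Nr1h2) sit on DNA as pairs with a retinoid X receptor such as RXRα (Rxra). PPARγ senses fatty acids and their oxidised forms and drives lipid uptake and storage, while the LXRs sense oxidised cholesterol and drive its export. In macrophages these receptors are known for handling the lipid of engulfed cells and lipoproteins and for restraining inflammatory genes. Larger organotins such as tributyltin and triphenyltin are known ligands of RXR and PPARγ. As background, the names show that TMT carries methyl groups and TET ethyl groups on tin, and the doses differed, so compound and dose cannot be told apart in any comparison of the organotin groups.

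The receptors bind direct repeats of the half-site AGGTCA, and promoter windows with a match are printed for 3 genes as examples. Pparg moved in opposite directions under the organotins, and Abca1 and Plin2 rose under both. Rxra, which also rose under both on its brightest probe set, and Cd36 held matches too, and their windows are not printed. Each window runs from 250 bases before to 50 bases after an annotated start site, 5′ to 3′ on the strand of the gene, from RefSeq annotation of GRCm38.p6. Windows were present for 9 of the 10 genes, 15 in all, and Abcg1 had none. Capitals mark matches to AGGTCA or, in Abca1, to the relaxed repeat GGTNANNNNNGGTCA, which has 4 bases between its half-sites, the spacing known for LXR. Both motifs and the relaxed repeat GGTNANNGGTCA, with the spacing of 1 base known for PPAR, were searched on both strands.
Abca1 (chr4:53159846-53160145, minus strand): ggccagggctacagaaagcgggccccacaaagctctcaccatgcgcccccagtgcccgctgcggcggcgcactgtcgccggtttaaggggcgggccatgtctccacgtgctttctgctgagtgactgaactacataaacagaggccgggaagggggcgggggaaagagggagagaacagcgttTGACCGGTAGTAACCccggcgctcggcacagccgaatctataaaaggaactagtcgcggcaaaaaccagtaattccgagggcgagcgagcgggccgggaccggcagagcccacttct
Plin2 (chr4:86670010-86670309, minus strand): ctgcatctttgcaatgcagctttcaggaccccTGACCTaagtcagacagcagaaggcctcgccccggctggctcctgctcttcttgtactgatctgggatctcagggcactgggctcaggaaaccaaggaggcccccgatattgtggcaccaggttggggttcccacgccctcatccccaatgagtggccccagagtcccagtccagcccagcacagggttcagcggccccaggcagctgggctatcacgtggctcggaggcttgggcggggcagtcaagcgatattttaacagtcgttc
Pparg, first start (chr6:115360894-115361193, plus strand): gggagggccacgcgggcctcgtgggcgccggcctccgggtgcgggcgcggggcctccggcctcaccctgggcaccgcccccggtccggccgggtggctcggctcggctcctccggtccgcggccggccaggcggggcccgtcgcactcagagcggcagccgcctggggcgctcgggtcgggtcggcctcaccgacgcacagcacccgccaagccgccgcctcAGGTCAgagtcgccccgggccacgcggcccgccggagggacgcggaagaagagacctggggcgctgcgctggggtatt
Pparg, second start (chr6:115362099-115362398, plus strand): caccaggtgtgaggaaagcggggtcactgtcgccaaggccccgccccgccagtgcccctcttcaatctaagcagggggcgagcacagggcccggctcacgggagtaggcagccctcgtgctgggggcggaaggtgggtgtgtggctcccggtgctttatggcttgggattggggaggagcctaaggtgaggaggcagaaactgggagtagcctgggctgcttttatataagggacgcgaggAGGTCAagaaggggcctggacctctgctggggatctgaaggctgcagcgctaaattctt

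Another Pparg window (chr6:115421816-115422115) held no match and is not printed. In Abca1 the match, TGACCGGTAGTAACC, lay on the opposite strand, 67 to 53 bases before the start. It was the 1 match to the repeat of spacing 4 among the 15 windows, and 0.207% of all 32851 promoter windows of the same length held it. This relaxed form leaves open the C of 1 half-site only and the leading A of both. The Abca1 match departs from AGGTCA at that C, so only a form open there could find it. Other relaxed forms were not searched, so the share describes this form alone and is no measure of how rare the Abca1 match is. The half-site alone was in 5 of the 15 windows (2 of Pparg and 1 each of Rxra, Cd36 and Plin2), against 16.3% of all windows. The repeat of spacing 1, relaxed at the same bases, was in 0 of the 15 and in 0.435% of all windows. Repeats of that spacing that differ at other bases would be missed. A match describes letters in a window and is not a measured binding site, and sequence further from the start was not searched.

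Values below are log2 signals as deposited, with SD and n = 3 for a group. Differences are log2 fold changes (log2 signal of one group minus that of another) with moderated SE, and a gene rose or fell where limma's test over all 18193 genes gave a Benjamini-Hochberg adjusted p under 0.05. Levels are compared between groups of 1 probe set and never between probe sets. Precision is limited by the number of arrays: for 1 gene, 3 arrays against 3 allow no exact permutation p below 0.1. Array medians ran from 6.08 to 6.19, and the interquartile range was narrower under TET (3.45 to 3.55) than in saline (3.83 to 3.88) or under TMT (3.78 to 3.86). Under TET, 31.2% of genes below the median brightness rose and 5.62% fell, while 23.6% of genes at or above it rose and 41.3% fell, and all 9 genes described here lay at or above it. Exactly equal signals occurred for 650 to 952 probe sets between a saline and a TET array and for 535 to 643 between 2 TET arrays. Between a TMT and a TET array there were 602 to 933. Pairs without TET had more, with 1494 to 1712 between 2 saline arrays and 1269 to 1817 between 2 TMT arrays. A saline and a TMT array shared 1140 to 1593. Macrophage markers were bright in all groups, with a mean level over 8 markers of 12.50 to 12.56 in saline, 12.32 to 12.64 under TMT and 12.28 to 12.42 under TET. In bulk RNA, fewer cells of a type and less RNA per cell cannot be told apart.

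TMT changed 7 of the 9 genes and TET 5, in different combinations. Under TMT, Rxra, Nr1h3, Abca1, Abcg1 and Plin2 rose and Pparg and Cd36 fell. Under TET, Pparg, Rxra, Abca1, Abcg1 and Plin2 rose and none fell. Over all genes, 14.3% rose and 13.4% fell under TMT, and 27.4% rose and 23.4% fell under TET. Among genes at or above the median brightness, where all 9 lay, 24.1% rose and 22.1% fell under TMT. Under TET 23.6% of these bright genes rose and 41.3% fell. The arrays of the groups did not overlap in 8 of the 9 genes for TMT against saline, where 44.7% of all genes did not overlap, and in 7 of the 9 for TET, where 58.7% did not. The median change over the 9 genes was 0.63 under TMT, beside 0.01 over all genes, and 0.31 under TET, beside 0.09. Both comparisons share the saline arrays. The median size of change, regardless of direction, was 0.96 against 0.18 for all genes under TMT and 0.37 against 0.34 under TET. The all-gene shares without overlap and the all-gene medians include the dim genes. The 9 genes were chosen with earlier results of these data known, so a larger change than that of all genes may come from the choice.

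**Figure D1:**
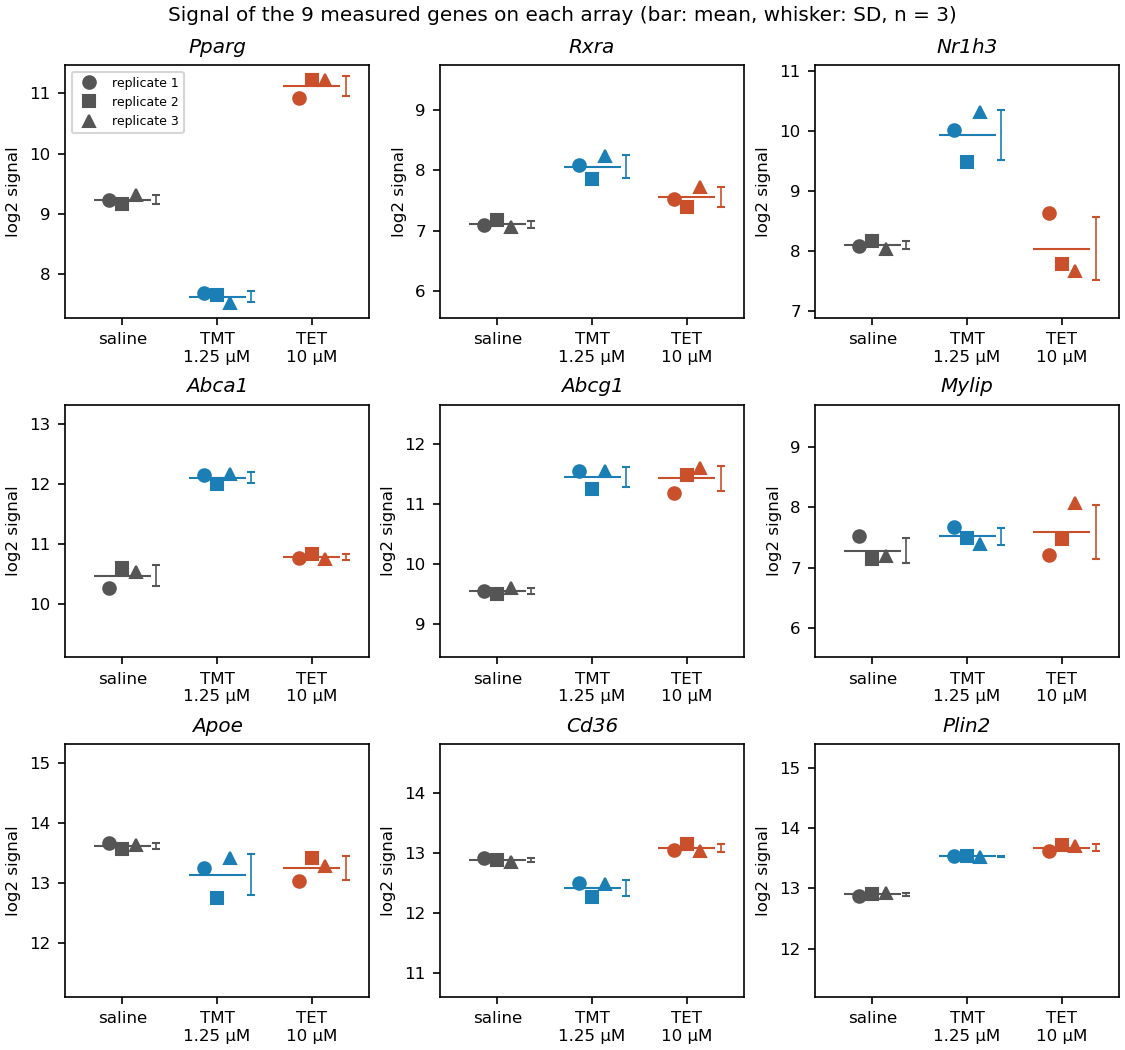
Log2 signal of the 9 measured genes on each array, with 1 panel per gene, the replicate number as the marker shape, the group mean as a bar and the SD (n = 3) as a whisker; every panel spans the same number of log2 units. Pparg lies near 7.6 under TMT, 9.2 in saline and 11.1 under TET, and Nr1h3 is highest on the 3 TMT arrays.

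Pparg, the receptor that drives fatty acid storage, moved in opposite directions under the organotins. It read 9.23, 9.16 and 9.31 on the saline arrays, 7.68, 7.65 and 7.51 under TMT and 10.93, 11.22 and 11.21 under TET (probe set 1420715_a_at). The 3 groups were ordered TMT, saline, TET with no overlap between them. TMT lowered it 3.06-fold (−1.62, SE 0.11, adjusted p = 2.3e-06), from 9.23 ± 0.07 to 7.62 ± 0.09. TET raised it 3.71-fold (1.89, SE 0.11, adjusted p = 3.58e-07), to 11.12 ± 0.17. The TET group thus stood 11.4-fold above the TMT group (3.51, SE 0.11, adjusted p = 1.26e-08), the 67th largest difference among the 18193 genes. Pparg rests on a single probe set, marked as able to bind several transcripts of the gene, so its transcripts and start sites cannot be told apart.

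Rxra, the partner receptor, rose under both organotins on its brightest probe set. That probe set (1454773_at) read 7.09, 7.17 and 7.05 in saline, 8.09, 7.86 and 8.24 under TMT and 7.53, 7.39 and 7.73 under TET, with no overlap between the groups. The rise was 1.94-fold under TMT (0.96, SE 0.12, adjusted p = 1.74e-04) and 1.36-fold under TET (0.45, SE 0.12, adjusted p = 0.0112), and the TET group was lower than the TMT group (−0.51, SE 0.12, adjusted p = 0.00511). The other probe sets gave another picture. On 1425762_a_at the mean level was 6.23 ± 0.13 in the saline group, 6.26 ± 0.08 with TMT and 6.80 ± 0.14 with TET, a change of 0.03 under TMT (adjusted p = 0.894 over all probe sets) and of 0.57 under TET (adjusted p = 0.00185). On the dim 1430497_at the means were 4.89 ± 0.06, 4.89 ± 0.24 and 5.04 ± 0.13, and neither change passed (adjusted p = 0.994 and 0.34). The TMT rise of Rxra therefore rests on 1 of 3 probe sets, and the order of the organotin groups turned with the probe set.

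Nr1h3, encoding the LXR isoform abundant in macrophages, rose under TMT and not under TET. Its signals were 8.09, 8.17 and 8.03 in saline, 10.01, 9.48 and 10.31 under TMT and 8.64, 7.79 and 7.68 under TET. All TMT arrays lay above all others, while the TET arrays fell on both sides of saline and spread widely (SD 0.52). The TMT rise was 3.57-fold (1.84, SE 0.26, 95% interval 1.26 to 2.41, adjusted p = 3.57e-04). For TET the difference was −0.06 (SE 0.26, 95% interval −0.63 to 0.51, adjusted p = 0.858), and it was 0.13 (adjusted p = 0.726) after quantile normalization was applied again. The TET group was 3.72-fold below the TMT group (−1.90, SE 0.26, adjusted p = 1.56e-04).

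Abca1 and Abcg1 encode the transporters that load cholesterol onto lipoproteins outside the cell, and both are classical LXR targets. Abca1 read 10.27, 10.60 and 10.54 in saline, 12.14, 11.99 and 12.16 under TMT and 10.76, 10.84 and 10.75 under TET (1421840_at). The groups did not overlap, but TET lay just above the highest saline array. Abca1 rose 3.09-fold under TMT (1.63, SE 0.10, adjusted p = 2.06e-06) and 1.24-fold under TET (0.31, SE 0.10, adjusted p = 0.0291). The TET group was 2.49-fold below the TMT group (−1.31, SE 0.10, adjusted p = 3.9e-06). All 3 probe sets rose under TMT, by 1.63 to 1.72, and under TET they gave 0.31, 0.46 and 0.92, of which the second did not pass (adjusted p = 0.035, 0.083 and 4.32e-04 over all probe sets). The TET call was lost without saline replicate 1 (0.22, adjusted p = 0.117), without TET replicate 2 (0.29, adjusted p = 0.0703) and with arrays centred on their medians (0.23, adjusted p = 0.0935). Against a 1.2-fold change it was lost as well (adjusted p = 0.613).

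Abcg1 rose under both. It read 9.54, 9.50 and 9.59 in saline, 11.54, 11.25 and 11.54 under TMT and 11.18, 11.48 and 11.59 under TET (1423570_at), so that both organotin groups cleared saline and overlapped each other. The rise was 3.73-fold under TMT (1.90, SE 0.12, adjusted p = 2.36e-06) and 3.67-fold under TET (1.87, SE 0.12, adjusted p = 1.19e-06). The difference between the organotin groups was −0.02 (95% interval −0.30 to 0.25, adjusted p = 0.881). The dimmer probe set of Abcg1 (1455221_at) also rose under both, by 1.40 under TMT and 0.87 under TET, and on it the TET group was lower than the TMT group (−0.53, SE 0.09, adjusted p = 0.00106 over all probe sets). The difference between the organotin groups passed on 1 of the 2.

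**Figure D2:**
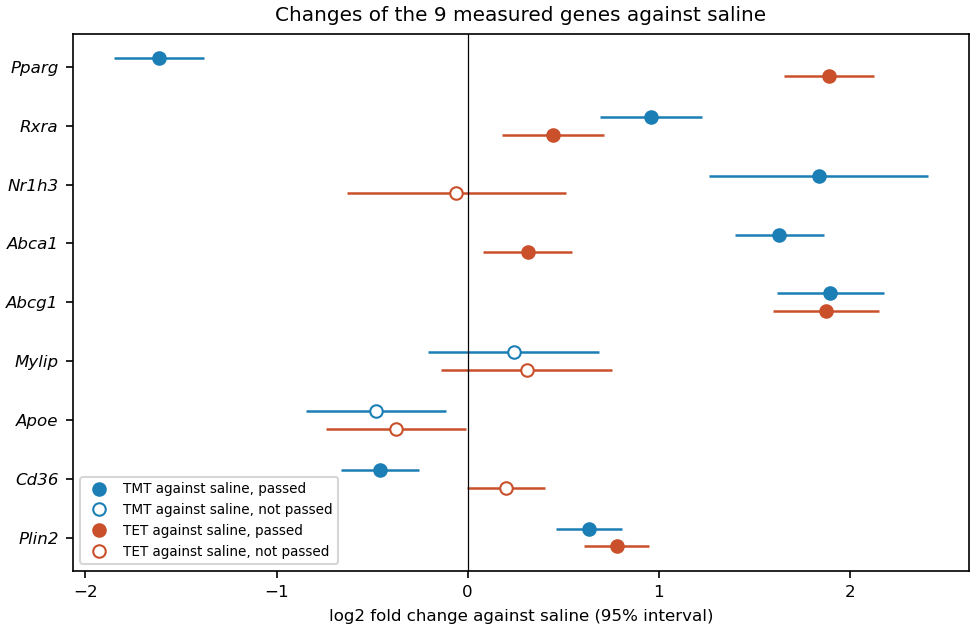
Log2 fold change of the 9 measured genes against saline, with 95% intervals from limma; filled points passed at an adjusted p under 0.05 and open points did not. Pparg is at −1.62 under TMT and 1.89 under TET, whereas Abcg1 and Plin2 lie to the right of 0 under both.

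The other sterol-handling genes did not pass in any comparison. Mylip encodes the LXR-induced ubiquitin ligase that removes the LDL receptor. Its levels were 7.52, 7.13 and 7.19 in saline, 7.67, 7.49 and 7.40 under TMT and 7.21, 7.47 and 8.08 under TET, with all groups overlapping. It passed in neither comparison (0.24, 95% interval −0.21 to 0.69, adjusted p = 0.463 under TMT; 0.31, 95% interval −0.14 to 0.76, adjusted p = 0.224 under TET). TET replicate 3 stood above the other TET arrays, and without it the TET value was 0.062.

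Apoe encodes apolipoprotein E, an acceptor of exported cholesterol and another LXR target. It was 13.66, 13.56 and 13.63 in saline, 13.26, 12.75 and 13.41 under TMT and 13.03, 13.42 and 13.28 under TET, near the top of the signal range. Every organotin array lay below every saline array, yet neither difference passed (−0.48, SE 0.16, adjusted p = 0.0545 under TMT; −0.37, SE 0.16, adjusted p = 0.0822 under TET). The TMT difference passed in 7 of 17 alternatives, such as −0.61 without TMT replicate 3 (adjusted p = 0.0249), and was −0.28 without TMT replicate 2 (adjusted p = 0.147). The TET difference passed in 3 of 17.

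Cd36, encoding a scavenger receptor for fatty acids and oxidised lipoproteins, and Plin2, encoding the coat protein of lipid droplets, are known PPAR targets. Cd36 read 12.91, 12.88 and 12.84 in saline, 12.50, 12.27 and 12.49 under TMT and 13.05, 13.15 and 13.03 under TET (1450883_a_at). On this probe set, near the top of the signal range, the order was that of Pparg, TMT lowest and TET highest. The groups did not overlap, but they spanned a far smaller range. On the other 2 probe sets the TMT arrays also lay below saline, but TET overlapped saline, with 11.90, 12.10 and 12.29 against 12.00 to 12.08 on 1423166_at and 10.28, 10.03 and 10.07 against 9.73 to 10.12 on 1450884_at. It fell 1.38-fold under TMT (−0.46, SE 0.09, adjusted p = 0.00344) and did not pass under TET (0.20, SE 0.09, 95% interval −0.0033 to 0.41, adjusted p = 0.0919). The TET group was 1.58-fold above the TMT group (0.66, SE 0.09, adjusted p = 1.83e-04). On the dimmer probe sets that difference was 0.69 (1423166_at) and 1.12 (1450884_at). All 3 probe sets fell under TMT (−0.46, −0.62 and −0.91) and 0 of 3 passed under TET (0.06 to 0.21). The TET difference passed after quantile normalization was applied again (0.24, adjusted p = 0.0372) and with trended, robust moderation (0.20, adjusted p = 0.0326).

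Plin2 rose under both organotins. Its signals were 12.88, 12.90 and 12.93 in saline, 13.54, 13.54 and 13.53 under TMT and 13.62, 13.72 and 13.71 under TET, near the top of the signal range. Both organotin groups stood clear of saline, with very small spread under TMT (SD 0.01). The rise was 1.55-fold under TMT (0.63, SE 0.08, adjusted p = 1.37e-04) and 1.72-fold under TET (0.78, SE 0.08, adjusted p = 1.94e-05). The organotin groups did not pass against each other (0.15, 95% interval −0.03 to 0.32, adjusted p = 0.138).

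Between the organotin groups, 5 of the 9 genes passed. Pparg and Cd36 were higher in the TET group and Rxra, Nr1h3 and Abca1 in the TMT group, against 28.1% of all genes higher and 23.7% lower under TET. At or above the median brightness, where all 9 lay, 25.1% of genes were higher and 41.5% lower under TET than under TMT. Arrays did not overlap in 6 of the 9, and in 57% of all genes. Within groups, TMT replicate 2 was the lowest TMT array in 6 of the 9 genes and TET replicate 1 the lowest TET array in 5 of 9. Without TMT replicate 2 the TMT rises of Nr1h3 and Abcg1 were 2.06 and 2.00.

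**Figure D3:**
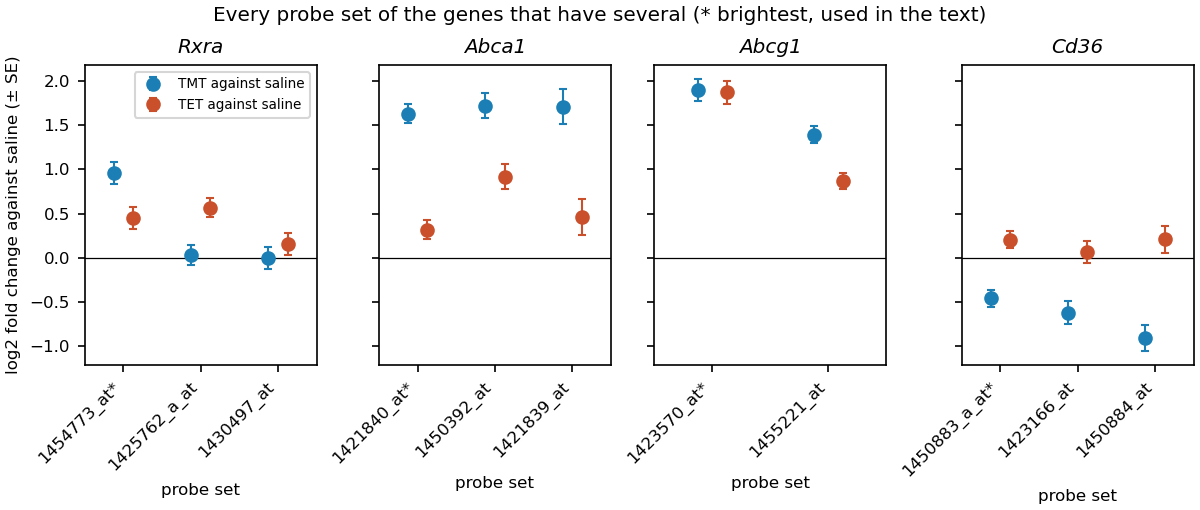
Log2 fold change against saline, with SE, of every probe set of Rxra, Abca1, Abcg1 and Cd36, from the fit over all probe sets; the asterisk marks the brightest, whose values the text leads with. The probe sets of Abca1 and Cd36 keep 1 direction under TMT, and the TMT rise of Rxra appears on 1 of 3.

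The rest of the pathway was read in 7 lists. They name 113 distinct genes, 101 of them measured, and the remainder was not analysed here. Together 11 rose and 16 fell under TMT, and 32 rose and 24 fell under TET, which is 26.7% and 55.4% of those measured. Both shares lie near those of all genes given above. Of the 44 list genes below the median brightness, 17 rose and 2 fell under TET, and of the 57 brighter ones 15 rose and 22 fell.

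Of 15 other LXR targets measured, 1 rose and 5 fell under TMT (median −0.12), where 14.3% of all genes rose and 13.4% fell, and 1 rose and 7 fell under TET (median −0.08), where 27.4% rose and 23.4% fell. In all, 53.3% of the list passed under TET, near the 50.8% of all genes. Of the 15, 9 were bright, with 0 rises and 4 falls under TMT and 1 rise and 5 falls under TET. The shares of all bright genes were 24.1% risen and 22.1% fallen under TMT, and 23.6% and 41.3% under TET. Tested against a 1.2-fold change, 4 fell and 0 rose under TET. Scd2, a fatty acid desaturase gene, was the one that rose under TMT, from 5.80 ± 0.24 to 7.65 ± 0.50 (1.85, SE 0.25, adjusted p = 3.04e-04), and it fell under TET (−1.03, SE 0.25, adjusted p = 0.00682). Cd5l, encoding a secreted macrophage survival protein, fell under TMT (−1.28, SE 0.09) and under TET (−1.42, SE 0.09), with adjusted p-values of 4.36e-06 and 1.02e-06. Fasn, encoding fatty acid synthase, fell under both (−0.92 and −0.43, adjusted p = 7.87e-05 and 0.00592), as did Apoc2, encoding the cofactor of lipoprotein lipase (−0.36 and −0.84, adjusted p = 0.0128 and 3.84e-05). Lpcat3, encoding a phospholipid-remodelling enzyme, had a TMT difference of 0.00 (adjusted p = 0.999) and fell 3.15-fold under TET (−1.66, SE 0.13, adjusted p = 4.24e-06). Mertk, encoding a receptor for dying cells, fell under TMT (−0.74, adjusted p = 2.51e-04) and rose under TET (0.38, adjusted p = 0.0089). Srebf1, encoding the lipogenic factor SREBP-1 and added here after its values were seen, passed under neither (0.13, adjusted p = 0.608 and −0.03, adjusted p = 0.869).

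Of 13 other genes listed as PPARG targets and measured, 9 rose and 1 fell under TET (median 0.46). Under TMT 2 rose and 1 fell (median 0.02). Whether PPARγ or another PPAR acted on any of them was not tested, and Ppard, another PPAR gene, rose under both organotins. Over all genes 27.4% rose under TET, and 31.2% of those below the median brightness. Set directly against the TMT group, 9 were higher and 1 lower in the TET group, beside 28.1% of all genes higher. Tested against a 1.2-fold change, the list had 4 calls in place of 10 under TET and 3 in place of 10 between the organotin groups, and among its 6 bright genes 4 passed in each. Lpl, encoding lipoprotein lipase, is in the lists of both receptors. Fabp4, encoding the fatty acid carrier abundant in macrophages and fat cells, read 12.80, 12.84 and 12.79 in saline, 12.07, 12.35 and 11.78 under TMT and 13.41, 13.40 and 13.39 under TET. Its groups were ordered as those of Pparg, with a fall under TMT (−0.74, SE 0.13, adjusted p = 0.00138), a rise under TET (0.59, SE 0.13, adjusted p = 0.00355) and a difference of 1.33 between the organotin groups (SE 0.13, adjusted p = 1.45e-05). Slc25a20, encoding the mitochondrial acylcarnitine carrier, rose under TMT (0.57, adjusted p = 0.0311) and TET (1.24, adjusted p = 2.08e-04). Cpt1a, encoding the enzyme that commits fatty acids to oxidation, rose under TMT (0.62, adjusted p = 0.0042), and its TET difference was 0.12 (adjusted p = 0.456). Klf15, a transcription factor gene, and Adipoq, encoding adiponectin, rose under TET (0.62 and 1.18, adjusted p = 3.51e-04 and 1.75e-05). Adipoq, however, read only 3.61 to 3.82 in saline and 4.74 to 4.99 under TET, near or below 4.71, the upper bound of the lowest 20% of genes in saline, and the files hold no mark of signal above background. Of the 9 rises under TET, 6 were among the 7 dim genes of the list and 3 among the 6 bright ones. Beside them, the mean level over 4 measured adipocyte markers was at most 5.01 in saline, 5.10 to 5.15 under TMT and 5.62 to 5.71 under TET, with 3 of 4 risen under TET, and 2 of the 6 listed adipocyte markers (Adipoq and Cidec) are also in the PPARG target list. Markers of B and T cells, also dim, rose in 4 of 6 (5.33 to 5.38 in saline, 5.71 to 5.76 under TET), stromal and endothelial markers in 5 of 6 (6.93 to 6.99 in saline, 7.24 to 7.45 under TET), dendritic cell markers in 3 of 6, erythroid markers in 2 of 4 and mast cell markers in 0 of 4. Neutrophil markers rose in 1 of 7 and fell in 3, and macrophage markers rose in 1 of 8 and fell in 4. The part of other cells or of the narrower TET signal range in these rises was not tested.

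Among 15 other nuclear receptors that pair with RXR or share its ligands, 2 rose under TMT and 7 under TET, and 0 and 1 fell. The share called was 13.3% under TMT, against 27.8% of all genes, and 53.3% under TET, against 50.8%. In this list 8 of the 15 lay below the median brightness, where 4.62% of all genes rose and 4.72% fell under TMT. The TMT count was 4 without TMT replicate 2 or without TET replicate 2, 4 with bright genes alone and 5 with the mean over probe sets or with the 6 arrays of the comparison. Under TET it was 5 in place of 8 with bright genes alone and against a 1.2-fold change. Ppard, encoding the ubiquitous PPARδ, rose under both. It read 7.13, 6.96 and 6.87 in saline, 8.74, 8.25 and 8.79 under TMT and 9.42, 9.93 and 9.72 under TET. The groups did not overlap, and the rises were 3.05-fold under TMT (1.61, SE 0.17, adjusted p = 4.76e-05) and 6.52-fold under TET (2.70, SE 0.17, adjusted p = 7.48e-07). Nr4a1, encoding an immediate early receptor, rose under both as well (0.81 and 0.97, adjusted p = 0.00117 and 2.2e-04), and Vdr, the vitamin D receptor gene, rose under TET (0.75, adjusted p = 0.00117). Rxrg, another RXR gene, and Rarg, a retinoic acid receptor gene, differed by 0.43 and −0.94 in the TET group against the TMT group (adjusted p = 0.00149 and 3.84e-04).

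Coregulators of these receptors changed in both directions. Of 14 measured, 3 rose and 4 fell under TMT, and 2 rose and 7 fell under TET (median −0.47). Bright genes made up 13 of the 14, and among all bright genes 24.1% rose and 22.1% fell under TMT, and 23.6% rose and 41.3% fell under TET. Against a 1.2-fold change 4 passed under TMT in place of 7. Ppargc1b, encoding the coactivator PGC-1β, was 9.72, 9.49 and 9.76 in saline and 7.23, 7.25 and 7.27 under TMT, and the TMT arrays lay far below. It fell 5.31-fold under TMT (−2.41, SE 0.19, adjusted p = 6.94e-06) and also fell under TET (−1.15, SE 0.19, adjusted p = 5.65e-04). Ncoa1, encoding the coactivator SRC-1, rose under both (1.28 and 0.97, adjusted p = 2.51e-05 and 9.58e-05), and Tbl1xr1, encoding a subunit of the corepressor complex, rose under TMT (0.79, adjusted p = 7.43e-04). Under TET Med1, encoding the Mediator subunit that contacts nuclear receptors, fell 2.99-fold (−1.58, SE 0.10, adjusted p = 8.25e-07) and Ncoa2, another coactivator gene, 1.95-fold (−0.96, SE 0.09, adjusted p = 1.81e-05). Under TMT Med1 fell less (−0.52, adjusted p = 0.00283) and Ncoa2 rose (0.43, adjusted p = 0.00599), and both were lower in the TET than in the TMT group (−1.06 and −1.39, adjusted p = 1.2e-05 and 1.3e-06). Hdac3, encoding the deacetylase of the corepressor complex, was lower in the TET than in the TMT group (−1.07, adjusted p = 4.26e-05).

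Genes that make or clear receptor ligands showed 2 falls and 0 rises of 15 under TMT, and 5 rises and 3 falls under TET. The share called was 13.3% against 27.8% of all genes under TMT, and 53.3% against 50.8% under TET. Genes below the median brightness made up 12 of the 15. Among all such dim genes 4.62% rose and 4.72% fell under TMT, and 31.2% rose and 5.62% fell under TET. The TMT count was 1 without any single saline array, TMT replicate 1 or TMT replicate 3, without the marked probe sets and against a 1.2-fold change. Under TET it was 3 in place of 8 with bright genes alone and 5 against a 1.2-fold change. Cyp27a1, encoding a sterol hydroxylase that makes an LXR ligand, fell 2.37-fold under TMT (−1.24, SE 0.13, adjusted p = 4.5e-05) and 1.58-fold under TET (−0.66, SE 0.13, adjusted p = 0.00179). Ch25h, encoding the enzyme that makes another oxidised cholesterol, had a TMT difference of 0.05 (adjusted p = 0.808) and fell 1.78-fold under TET (−0.83, SE 0.10, adjusted p = 8.4e-05). Rdh10, encoding a retinol dehydrogenase on the way to retinoic acid, fell under TMT (−0.58, adjusted p = 0.0235) and 4.24-fold under TET (−2.08, SE 0.16, adjusted p = 3.9e-06). Aldh1a2, encoding the next enzyme of that path, rose under TET (1.06, adjusted p = 1.73e-04). All 5 rises under TET were in dim genes.

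Among 13 measured genes of sterol uptake and hydrolysis, 4 fell and 0 rose under TMT, and 4 fell and 1 rose under TET. That is 30.8% called under TMT, beside 27.8% of all genes, and 38.5% under TET, beside 50.8% of all genes. Bright genes made up 12 of the 13. Among all bright genes 24.1% rose and 22.1% fell under TMT, and 23.6% rose and 41.3% fell under TET. With trended, robust moderation 7 of the list passed under TMT in place of 4. Olr1, encoding the oxidised LDL receptor LOX-1, went from 10.68, 10.98 and 10.91 in saline to 7.72, 8.17 and 7.40 under TMT and 8.83, 8.62 and 8.22 under TET. That was a fall of 8.53-fold (−3.09, SE 0.20, adjusted p = 2.38e-06) and of 4.93-fold (−2.30, SE 0.20, adjusted p = 9.15e-06). Lipa, encoding the lysosomal acid lipase that frees cholesterol from its esters, fell 2.92-fold under TMT (−1.55, SE 0.09, adjusted p = 1.21e-06) and 1.63-fold under TET (−0.71, SE 0.09, adjusted p = 1.29e-04). Lrp1, encoding a large lipoprotein receptor, fell under both (−0.96 and −0.61, adjusted p = 8.61e-05 and 0.00111). Scarb1, encoding the HDL receptor, fell under TET (−1.26, adjusted p = 2.08e-05), and its TMT difference was −0.37 (adjusted p = 0.0502). Nceh1, encoding a cholesterol ester hydrolase, fell under TMT (−0.96, adjusted p = 9.14e-04), rose under TET (0.47, adjusted p = 0.0271) and was 2.70-fold higher in the TET than in the TMT group (1.43, SE 0.15, adjusted p = 3.26e-05).

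Lipid droplet and triglyceride genes rose in 3 of 17 under TMT with 0 falls, and in 7 under TET with 2 falls. The share called was 17.6% under TMT, below the 27.8% of all genes, and 52.9% under TET, near the 50.8%. Of the 17, 9 lay below the median brightness, where 4.62% of all genes rose and 4.72% fell under TMT. As the mean over probe sets, 5 of the list passed under TMT in place of 3. Hilpda, encoding a droplet protein that blocks lipolysis and is known to respond to low oxygen, read 6.89, 7.22 and 6.81 in saline, 10.08, 9.58 and 10.12 under TMT and 10.54, 11.18 and 10.94 under TET. It rose 7.74-fold under TMT (2.95, SE 0.19, adjusted p = 2.38e-06) and 15.1-fold under TET (3.91, SE 0.19, adjusted p = 1.65e-07). Dgat2, encoding the last enzyme of triglyceride synthesis, rose 4.98-fold under TMT (2.32, SE 0.15, adjusted p = 2.13e-06), and Gpat3, encoding the first, 1.65-fold (0.72, SE 0.10, adjusted p = 4.3e-04). Both also rose under TET (0.98 and 0.80, adjusted p = 3.74e-04 and 1.33e-04). Under TET the lipase activator gene Abhd5 rose 4.26-fold (2.09, SE 0.18, adjusted p = 7.4e-06) and Plin3, a relative of Plin2, 2.88-fold (1.53, SE 0.15, adjusted p = 2.06e-05). Lpin1, encoding a phosphatidic acid phosphatase, was 1.58 higher in the TET than in the TMT group (adjusted p = 1.93e-05), and Dgat2 was lower (−1.33, adjusted p = 4.18e-05).

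**Figure D4:**
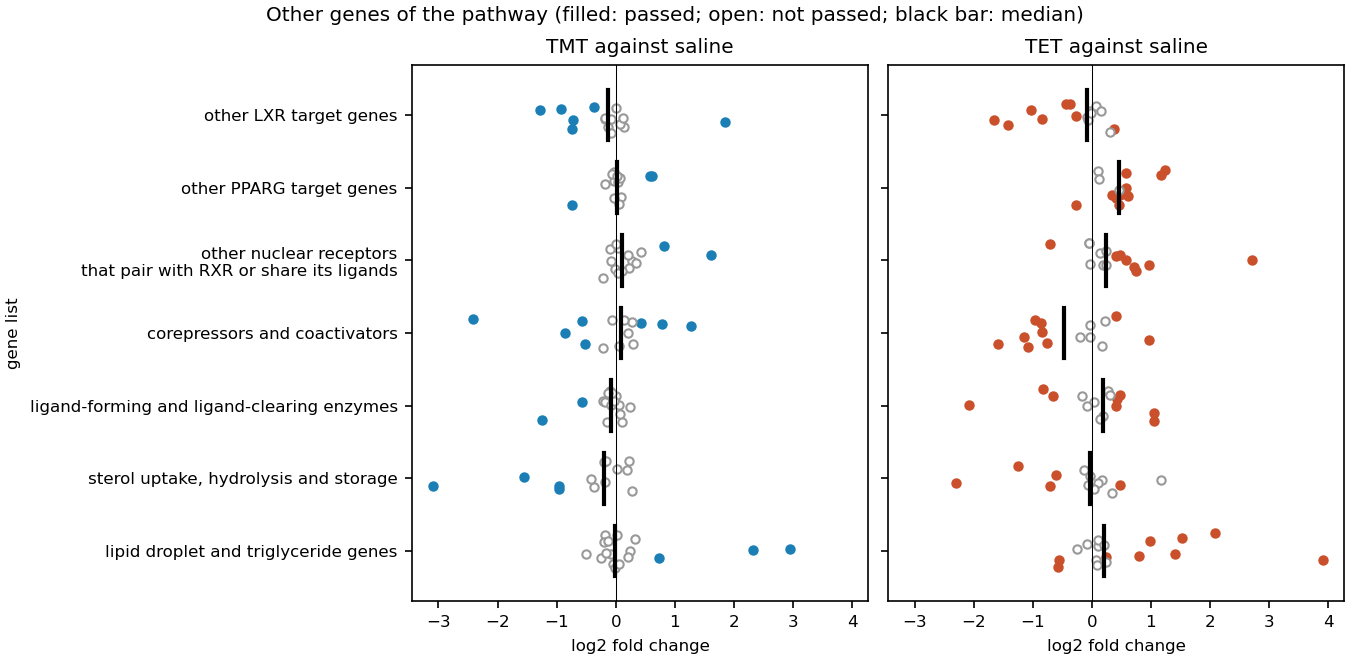
Log2 fold change against saline of each measured gene of the 7 pathway lists, TMT on the left and TET on the right; filled points passed, open points did not, and the black bar is the median of the list. Of the genes listed as PPARG targets 9 of 13 rose under TET, beside 27.4% of all genes, and 4 passed against a 1.2-fold change. The coregulators spread to both sides.

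For the 4 genes that changed at least 2-fold against saline, Pparg, Nr1h3, Abca1 and Abcg1, the nearest patterns were sought among 9097 genes at or above the median brightness, as the distance between pairs of log2 fold changes under TMT and TET over the 3 groups. Nearest to Pparg were Gm5547 (−1.59 under TMT and 1.88 under TET, distance 0.030) and Nedd4l, a ubiquitin ligase gene (−1.72 and 1.88, distance 0.106). Nearest to Nr1h3 were Irak3 (1.78 and −0.07, distance 0.0601) and Plekhm3 (1.76 and 0.10, distance 0.171). Abca1 was nearest to Cybc1 (1.64 and 0.31, distance 0.0151) and Pgp (1.68 and 0.32, distance 0.0456), and Abcg1 to Cd300lf (1.79 and 1.82, distance 0.121) and Zfp558 (1.82 and 1.99, distance 0.145). These distances describe likeness of level across the groups and nothing further.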

How the data were processed

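Gene expression was measured on 9 Affymetrix Mouse Genome 430 2.0 arrays, 3 per group, from 50 ng of RNA (Nugen WT-Ovation Pico amplification), per the labels' protocols. RMA and affy are named in the submitters' processing notes (versions: not given in the sources used here). Log2 signals of 45037 probe sets were deposited; the base was taken from the values. Which arrays were processed together is not stated. The table was used as deposited, 0 per-sample columns were left unused, and no background mark of single probe sets was used.

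Of the probe sets, 34945 named 1 gene in the platform annotation, 932 several and 9160 none. Those naming 1 gene gave 18193 genes, each by its brightest probe set. 162 genes had identifiers not in the GRCm38.p6 gene table, and 0 symbols needed updating. Of the genes described, 4 (Pparg, Nr1h3, Apoe and Cd36) rest on probe sets marked _a_at, which may bind several transcripts of a gene.

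limma 3.58.1 in R 4.3.3 fitted 1 mean per group to all 9 arrays (6 residual degrees of freedom, prior degrees of freedom 3.99), and its two-sided p was corrected over all genes (Benjamini-Hochberg). The threshold was an adjusted p under 0.05. The fit was tested on simulated data. Values of single probe sets come from the same model over the 34945 probe sets. Replicate numbers were not used as a block. The correlations of deviations from the group means between same-numbered arrays ran from −0.148 to 0.308, with 3 of 9 above 0.1.

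The members, lists, markers and named genes were chosen with earlier results of these data known. The text names the 10 members, up to 3 genes that passed with the smallest adjusted p from each list and comparison, and the 2 nearest patterns of each member changed at least 2-fold. Alternatives were leaving out each array, the replicate block, median centring, quantile normalization again, the mean over probe sets, no probe sets marked _x_at, _s_at or _a_at, bright genes alone, the 6 arrays of each comparison, trended robust moderation and a test against a 1.2-fold change.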

Additional observations from a re-analysis of the deposited data

Results flagged for a closer look

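Pparg was flagged because all 3 TMT arrays lay below and all 3 TET arrays above the saline arrays, and the TET group stood 3.51 above the TMT group on the log2 scale (SE 0.11, adjusted p = 1.26e-08 by limma). Cd36 met the same condition with a difference of 0.66 (SE 0.09, adjusted p = 1.83e-04), though its difference between TET and saline did not pass and its TET arrays overlapped saline on the other 2 probe sets of the gene.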

How the results depend on the processing

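Over 27 changes (9 genes in 3 comparisons), 15 kept direction and side of the threshold in all 17 or 18 alternatives, among them Pparg in all 3 comparisons. Of 477 values, 446 did so, 14 newly passed, 7 no longer passed and 10 changed sign, and of those 10 only Rxra had passed before. The changes of sign were Nr1h3 under TET (0.13 after quantile normalization was applied again; 0.062 and 0.12 without TET replicates 2 and 3; range without 1 array −0.36 to 0.12), Rxra between the organotin groups (0.060 as the mean over probe sets), Abcg1 between them (0.028 after quantile normalization; 0.026, 0.024 and 0.094 without TMT replicates 1 and 3 and TET replicate 1; range −0.12 to 0.094), Mylip between them (−0.18 without TET replicate 3; range −0.18 to 0.26) and Apoe between them (−0.089 without TMT replicate 2; range −0.089 to 0.24).

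Tested against a 1.2-fold change, a stricter question, TET called 3 of the 9 genes in place of 5. For the list genes, TET called 36 of 101 in place of 56, and TET against TMT 30 in place of 57. Among the calls lost were Rxra and Abca1 under TET (adjusted p = 0.211 and 0.613) and Cd36 under TMT (adjusted p = 0.147). With bright genes alone, 57 list genes were tested and 37 passed under TET. Without the marked probe sets 6 of the 9 genes were left, and 3 passed between the organotin groups. Without 1 array, the genes called ran from 7 to 8 under TMT, 4 to 6 under TET and 5 to 5 between the groups. Over all genes, the calls were 5049, 9247 and 9425 for TMT, TET and TET against TMT, and 2760, 5143 and 5374 against a 1.2-fold change; bright genes alone gave 6066 and 6270 for the last 2. Centred on array medians, rises made up 43.9% of the TET calls in place of 53.9%.

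The replicate numbers did not pair the arrays, since an array correlated best with its own number in 6 of 18 comparisons. With the replicate block, 7, 5 and 5 of the 9 genes were called, as without it, and 28, 55 and 54 list genes in place of 27, 56 and 57.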
